A study of Gallus gallus with 12 samples.

Results

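The livers and abdominal fats of broilers fed a normal diet (ND) were compared, 3 livers against 3 abdominal fats, which are 6 of the 12 samples of the series. All birds were female Xinghua chickens with the dw gene, a sex-linked dwarf type that carries a mutation in the growth hormone receptor gene, and were 8 weeks old per the labels, an age that the methods give for the start of 2 weeks on the diet, after which the tissues were taken. The other 6 samples are the livers and abdominal fats of birds of the same type fed a high-fat diet (HFD). The ND birds that were sequenced had been chosen for a lower abdominal fat rate than the rest of their group, so the abdominal fats came from the leaner ND birds. The methods describe both tissues from the same 3 ND birds, but which liver and abdominal fat share a bird is not stated. The tests below treat the 6 samples as independent. Each value is an FPKM, a fragment number divided by transcript length and by the sample's mapped fragments, for 1 of 18332 genes. A gene was tested when it reached 1 FPKM in all 3 samples of either tissue, which held for 12450 genes. Of these, 9625 met the limit in both tissues, 668 in liver only and 2157 in abdominal fat only, so a gene of the last 2 kinds was tested because it was present in the tissue where it is high.

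The liver releases most proteins of the blood plasma, makes bile acids, breaks down amino acids, exports fat as lipoproteins and releases glucose and ketone bodies. In birds it is also the main site of fatty acid synthesis, and it is a site where surplus nitrogen is turned into uric acid. Abdominal fat stores triglyceride in adipocytes, most of which is built from fatty acids delivered by lipoproteins. It also holds fibroblast-like stromal cells, vessels, a covering mesothelium and immune cells, and both tissues were sequenced whole. A difference in the level of a gene between whole tissues may reflect more cells of a type or more RNA per cell, and these cannot be told apart here.

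Marker genes followed the labelled tissues. All 19 tested hepatocyte markers were higher in liver and all 9 tested adipocyte markers were higher in abdominal fat. The latter count was 8 without liver 1, and 8 under the median ratio scaling described below. The lists were written with earlier results of these data known, and some markers were tested only through the tissue where they are high. The counts thus describe the samples and are no test of the labels. CPS1, the urea cycle gene of mammalian hepatocytes, and LEPR, the leptin receptor, did not reach the limit for testing. On the log2(FPKM + 1) scale, the Pearson correlation across the tested genes was 0.971 to 0.980 between livers and 0.947 to 0.964 between abdominal fats. The 10 most expressed genes held 28.6% ± 1.61 of the summed FPKM in liver and 9.72% ± 0.225 in abdominal fat (SD, n = 3, exact permutation p = 0.1, the smallest that 3 against 3 samples allow). ALB (albumin, the main plasma protein) held 7.21% to 14.2% of the summed FPKM of a liver. Fewer genes reached 1 FPKM in liver (10965 ± 264, SD, n = 3) than in abdominal fat (12392 ± 108, exact permutation p = 0.1, also the smallest possible), and the samples of the tissues did not overlap in either measure. Abdominal fat 2 stood apart in that it held liver transcripts, and its correlation with the livers was 0.617 to 0.626, against 0.496 to 0.528 for the other abdominal fats. For many genes high in liver the value in each abdominal fat is therefore given. Others are given only as a difference over all samples. Differences of some genes without abdominal fat 2 are given further on, with the counts of calls.

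Genes across the transcriptome differed between the tissues. A gene was called when its log2 difference was 1 or more in size with a limma p, adjusted by the Benjamini-Hochberg method, of 0.05 or less. By this rule, 6232 of 12450 genes (50.1%) differed, 1249 higher in liver (10%) and 4983 higher in abdominal fat (40.0%). The count of each gene list is to be read beside these 10% and 40.0%. Where list genes were tested only through the tissue where they are high, the count follows in part from the choice of tested genes. The median size of the difference was 2.28 on the log2 scale for genes higher in liver and 1.68 for genes higher in abdominal fat, and 183 and 128 of them differed by at least 5. The 3 livers and 3 abdominal fats did not overlap for 1245 of the 1249 and 4951 of the 4983 called genes, where 80.3% of all tested genes had no overlap. FPKM is relative to the mapped fragments of its sample, so very abundant genes lower the values of the others. The median tested gene was lower in liver by 0.77 on the log2 scale. When the samples were scaled to the same distribution (quantile normalization), this median was -0.04 and 2074 genes were higher in liver and 2405 in abdominal fat. With scaling by the median ratio, it was -0.14 and the counts were 2036 and 2709. Genes higher in abdominal fat were thus 80.0% of the calls as deposited, 53.7% after quantile normalization and 57.1% after median ratio scaling. Differences below are liver minus abdominal fat on the log2(FPKM + 1) scale with their standard error, and relative to the median gene each of them is 0.77 higher than printed. Each gene said to be higher in a tissue passed the call as deposited. The sign of the median of a gene list was the same under all 3 scalings for the lists named here, other than triglyceride synthesis, ribosomal proteins and the B cell markers. Values of 3 samples are given in the order of samples 1, 2 and 3.

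**Figure D1:**
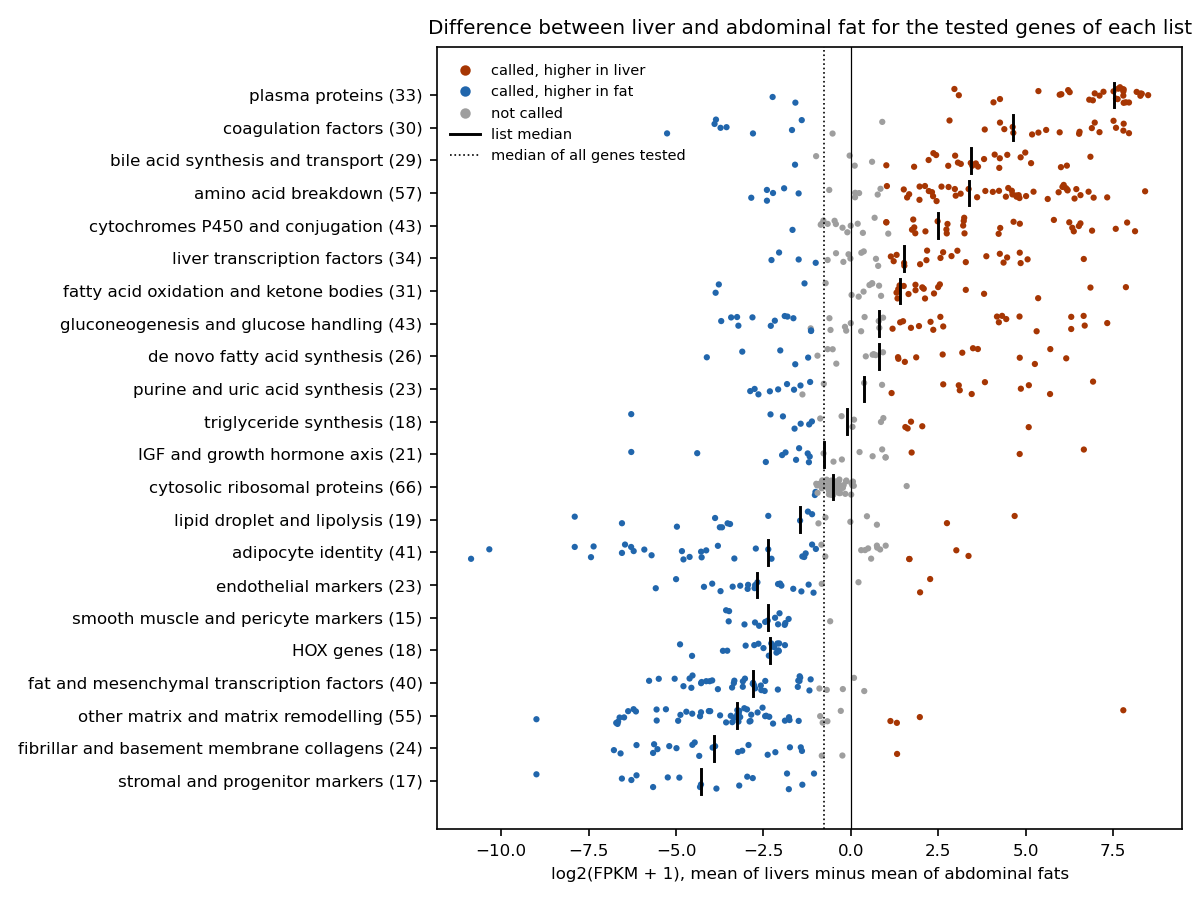
Difference between the tissues (mean of 3 livers minus mean of 3 abdominal fats, log2(FPKM + 1)) for each tested gene of 22 gene lists, with the number of tested genes in brackets, the list median as a bar and the median of all tested genes as a dotted line. Plasma proteins had the highest list median of the lists drawn (7.51) and stromal and progenitor markers the lowest (-4.29), while the points of purine, triglyceride and glucose genes spread to both sides. The median of the triglyceride genes is negative as deposited and positive under both other scalings, and that of the ribosomal proteins turns positive under median ratio scaling.

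Plasma proteins secreted by the liver were far higher in liver. Of 33 tested plasma proteins, 31 were higher in liver, with a median difference of 7.51 over the list, beside -0.77 over all genes. ALB measured 80171, 43988 and 64959.6 FPKM in the livers and 22.4, 2887 and 69.96 FPKM in the abdominal fats, a difference of 8.50 ± 1.61 (limma, adjusted p = 0.00212). Every liver was far above every abdominal fat, and abdominal fat 2 was the highest of the fats. AHSG (fetuin, a carrier of calcium phosphate) measured 4057, 4036 and 4513 FPKM in liver and 1.57, 174 and 4 FPKM in abdominal fat. TTR, which carries thyroid hormone, measured 3809.8, 4010.1 and 4407 FPKM in liver and 3.08, 184 and 7.54 FPKM in abdominal fat. GC, the vitamin D carrier, measured 2539, 3544 and 3325 FPKM in liver and 1.76, 87.4 and 3.04 FPKM in abdominal fat. The 3 livers lay close together for these carriers and no abdominal fat came near them. TF (the avian transferrin, which carries iron) differed less, by 4.08 ± 0.33, and the abdominal fats held 341, 489 and 291 FPKM of it. The 2 plasma protein genes that were higher in abdominal fat, LCN8 and CRP (C-reactive protein), had low FPKM and kept the call under neither other scaling, and the count fell to 1 without any single sample other than abdominal fat 2.

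**Figure D2:**
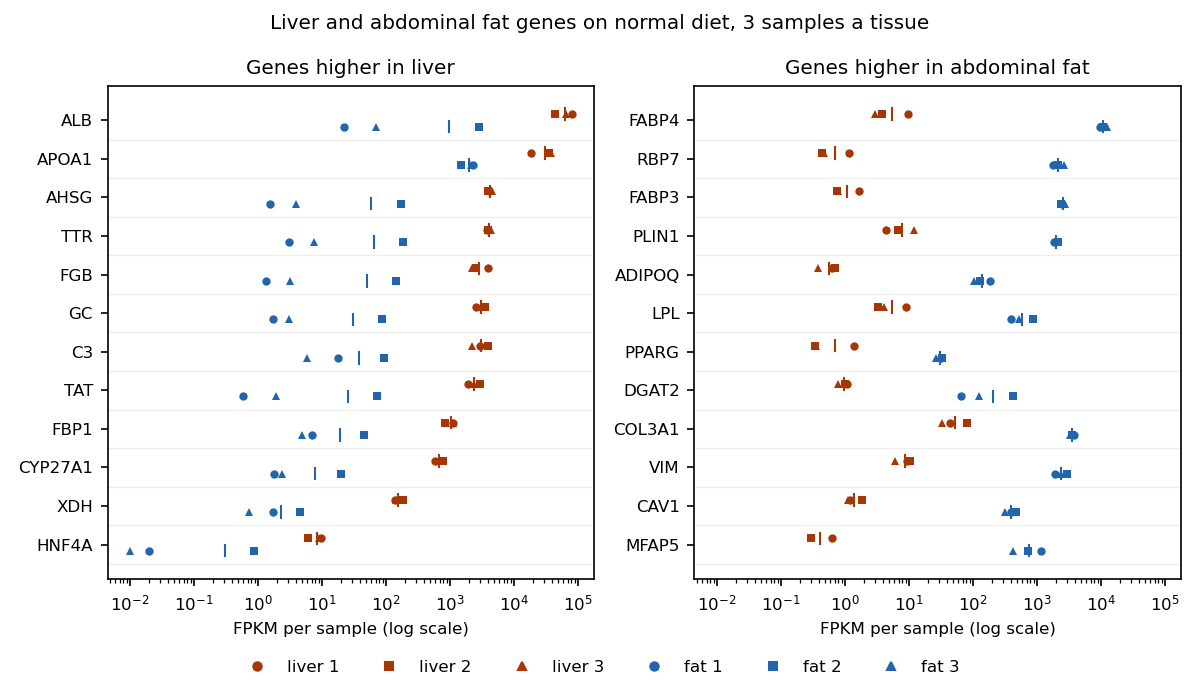
FPKM per sample on a log axis for 12 genes higher in liver and 12 genes higher in abdominal fat, with 1 symbol per sample and a short bar at the mean of the 3 samples. The livers and the abdominal fats do not overlap for any of these genes, and abdominal fat 2 is the highest of the fats for all genes in the left panel other than APOA1.

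Clotting and complement genes were called in both directions. Of 30 tested coagulation genes, 20 were higher in liver and 8 in abdominal fat. Beside the 10% and 40.0% of all tested genes, only the liver count was above its share. FGB (fibrinogen beta chain) measured 3905, 2534 and 2239.8 FPKM in liver and 1.35, 147 and 3.18 FPKM in abdominal fat, and the fibrinogen genes FGA (7.80 ± 1.28) and FGG (7.58 ± 1.41) differed to a like extent. PLG (plasminogen, the precursor of the enzyme that dissolves clots) and SERPINC1 (antithrombin) were higher in liver by 7.51 ± 1.14 and 7.80 ± 1.06. Genes made by vessel walls or tissue cells were among the 8 higher in abdominal fat. VWF (von Willebrand factor, made by endothelial cells) measured 84.3, 112 and 129 FPKM in abdominal fat and 7.87, 5.67 and 8.08 FPKM in liver. F3 (tissue factor, the starter of clotting outside vessels) measured 15.4, 21.4 and 25.3 FPKM in abdominal fat and 0.5, 0.62 and 0.3 FPKM in liver. THBD (thrombomodulin) and TFPI, which both restrain clotting, differed by -3.90 ± 0.24 and -3.56 ± 0.33. F13A1, the enzyme subunit that cross-links fibrin, was at 90.4, 83.5 and 15.4 FPKM in abdominal fat, so that abdominal fat 3 lay well under the other fats, yet above the livers at 0.35, 0.12 and 0.49 FPKM.

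Of 33 tested complement genes, 17 were higher in liver and 9 in abdominal fat, and here too only the liver count was above the share of all genes. The count in abdominal fat was 7 to 12 with 1 sample left out. Under quantile normalization and median ratio scaling it was 7 and 7, with 18 and 20 in liver. C3, the central component, measured 2994, 3939 and 2194 FPKM in liver and 18.1, 92.5 and 5.8 FPKM in abdominal fat, a difference of 7.01 ± 0.86. C8A and C8B, parts of the membrane attack complex, and MBL2 (mannose-binding lectin) differed by 6.80 ± 0.88, 6.45 ± 0.66 and 6.31 ± 0.93. Membrane proteins that shield cells from complement were among the genes higher in abdominal fat. CD59 measured 113, 146 and 106 FPKM in abdominal fat and 6.76, 3.41 and 4.94 FPKM in liver. CD55 measured 71.5, 69.4 and 67.6 FPKM in abdominal fat and 2.7, 4.24 and 3.46 FPKM in liver. CFD (adipsin), named for its place among adipocyte genes in mammals, was not called here. Its FPKM overlapped at 694, 1057 and 648 in liver and 632, 483 and 842 in abdominal fat, with a 95% interval of the difference from -0.39 to 0.98, and it passed the call as higher in liver under median ratio scaling.

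Lipoprotein genes were called in both directions. Of 23 tested genes of this list, 12 were higher in liver and 5 in abdominal fat, beside 10% and 40.0% of all tested genes. Here again the liver count alone was above its share. APOB, the structural protein of very low density lipoprotein, measured 203, 85.2 and 141 FPKM in liver and 0.06, 8.43 and 0.17 FPKM in abdominal fat. APOC3 and APOA4, which travel on lipoproteins, differed by 8.17 ± 1.54 and 7.91 ± 1.06. APOA1, the main protein of high density lipoprotein, which chickens make in many tissues, measured 18983, 36200 and 38824 FPKM in liver and 2287, 1526 and 2183 FPKM in abdominal fat. In APOA1 abdominal fat 2 was the lowest of the fats, unlike in the other liver genes named so far. LPL (lipoprotein lipase, which frees fatty acids from lipoproteins) measured 402, 874 and 527 FPKM in abdominal fat and 9.24, 3.34 and 4.12 FPKM in liver, a difference of -6.55 ± 0.39 (limma, adjusted p = 1.06e-05). VLDLR, the receptor for very low density lipoprotein, measured 28, 29.01 and 22.6 FPKM in abdominal fat and 1.53, 0.55 and 0.82 FPKM in liver. PLTP, which moves phospholipid between lipoproteins, and ABCA1, which exports cholesterol, were higher in abdominal fat by smaller amounts (-2.25 ± 0.20 and -1.93 ± 0.28).

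Genes of bile acids, drug conversion and amino acid breakdown were mostly liver genes. In the bile acid list 24 of 29 tested genes were higher in liver and 1 in abdominal fat (2 without abdominal fat 1 or liver 1). CYP27A1, which oxidises the side chain of cholesterol, measured 585, 773 and 672 FPKM in liver and 1.8, 19.8 and 2.39 FPKM in abdominal fat. CYP7A1, the rate-limiting enzyme of bile acid synthesis, was far lower and uneven among livers at 25.9, 9.48 and 5.58 FPKM, with 0.03, 1.53 and 0.03 FPKM in abdominal fat (3.14 ± 0.57). BAAT, which joins bile acids to amino acids, and the transporters SLCO1B1 and SLC51A differed by 4.99 ± 0.29, 6.01 ± 0.76 and 6.18 ± 0.62. The transporter ABCG2 was at a like level in all samples (35.7, 43.2 and 40.7 and 34.8, 45.1 and 43.1 FPKM, 95% interval from -0.39 to 0.32). The cytochrome P450 and conjugation list had 29 of 43 genes higher in liver and 1 in abdominal fat (3 without abdominal fat 2 and 2 without liver 1). Its gene with the largest difference, CYP2K1L, measured 984, 759 and 1174 FPKM in liver and 0.6, 9.48 and 1.39 FPKM in abdominal fat. POR, which passes electrons to these enzymes, was the 1 higher in abdominal fat (86.5, 284 and 133 against 34.5, 55.6 and 50.8 FPKM, -1.67 ± 0.42), a call that median ratio scaling did not keep.

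Of 57 tested genes of amino acid breakdown, 45 were higher in liver and 6 in abdominal fat, beside 10% and 40.0% of all tested genes. TAT (tyrosine aminotransferase) measured 1952, 2982 and 2372 FPKM in liver and 0.59, 73.6 and 1.92 FPKM in abdominal fat, a difference of 8.42 ± 1.31. FAH, the last enzyme of tyrosine breakdown, differed by 6.80 ± 0.68. PSPH, a serine synthesis enzyme that the list also holds, measured 3792, 4281 and 6064 FPKM in liver and 6.66, 278 and 10.01 FPKM in abdominal fat. PHGDH, the first enzyme of that route, differed by 6.94 ± 0.76. The 6 genes higher in abdominal fat included ASS1 (argininosuccinate synthase, 84.9, 132 and 85.6 against 29.3, 17.2 and 11.1 FPKM) and PRODH (proline dehydrogenase, 13.1, 16.6 and 18.99 against 3.93, 1.79 and 1.45 FPKM). In BCAT1 (2.2, 0.49 and 0.56 FPKM in liver) and AASS (12.7, 4.86 and 3.69 FPKM), which start the breakdown of branched amino acids and lysine, liver 1 was the highest liver, and still under each abdominal fat.

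In the purine list, 10 of 23 tested genes were higher in liver and 9 in abdominal fat. Only the liver count was above the share of all tested genes called in that direction, and the count in abdominal fat was close to its share. ATIC, which closes the purine ring, measured 3192, 3269 and 3189 FPKM in liver and 97.9, 155 and 53.6 FPKM in abdominal fat. PPAT, the committed enzyme, measured 128, 99.1 and 139 FPKM in liver and 6.62, 11.1 and 5.76 FPKM in abdominal fat. XDH (xanthine dehydrogenase, which makes uric acid) measured 139, 185 and 142 FPKM in liver and 1.76, 4.55 and 0.74 FPKM in abdominal fat (5.70 ± 0.39; limma, adjusted p = 1.77e-05). The salvage enzyme HPRT1 measured 15.7, 14.1 and 22.99 FPKM in abdominal fat and 2.36, 1.53 and 1.32 FPKM in liver, and APRT and ADA (adenosine deaminase) differed by -2.08 ± 0.13 and -2.88 ± 0.19. The isoforms of phosphoribosyl pyrophosphate synthetase, which supplies purine synthesis and salvage, were exchanged, with PRPS2 at 1069, 1001 and 1065 FPKM in liver and 4.17, 43.9 and 1.73 FPKM in abdominal fat. PRPS1 was at 9.39, 10.1 and 8.23 FPKM in liver and 54.5, 47.2 and 48.2 FPKM in abdominal fat. Under quantile normalization and median ratio scaling, 12 and 12 genes of the list were higher in liver and 5 and 7 in abdominal fat.

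Glucose genes were called in both directions. Of 43 tested genes, 20 were higher in liver and 12 in abdominal fat, beside 10% and 40.0% of all tested genes. The liver count was above its share and the count in abdominal fat below its share. SLC2A2 (the liver glucose transporter GLUT2) measured 146, 267 and 186 FPKM in liver and 0.09, 4.56 and 0.11 FPKM in abdominal fat. KHK (ketohexokinase, the entry of fructose) differed by 6.66 ± 0.84. FBP1 (fructose bisphosphatase, a step found only in glucose synthesis) measured 1134, 836 and 1145 FPKM in liver and 7.11, 45.7 and 4.84 FPKM in abdominal fat. PCK1, the first committed step of glucose synthesis from pyruvate, measured 44.6, 290.3 and 217 FPKM in liver and 1.12, 1.67 and 0.04 FPKM in abdominal fat, with liver 1 well under the other livers (6.30 ± 0.70). The glucose phosphorylating enzymes HK1 and HK2 were higher in abdominal fat. The hexokinase HK1 measured 21.02, 35.1 and 29.8 FPKM in abdominal fat and 2.18, 1.86 and 1.17 FPKM in liver. HK2, which insulin induces in mammals, measured 49.8, 55.1 and 67.2 FPKM in abdominal fat and 8.56, 8.48 and 5.14 FPKM in liver. PKM (pyruvate kinase of muscle type) measured 177, 205 and 175 FPKM in abdominal fat and 14.2, 16 and 10.1 FPKM in liver. The abdominal fats lay above every liver for these enzymes. PFKP (platelet type phosphofructokinase) measured 29.8, 26.8 and 25.4 FPKM in abdominal fat and 2.13, 2.05 and 1.94 FPKM in liver. Pairs of isoforms chosen after their values were seen also lay on opposite sides. Glycogen synthase GYS2 was higher in liver by 5.31 ± 0.33 and GYS1 in abdominal fat (-1.81 ± 0.20), and glycogen phosphorylase PYGL was higher in liver (1.95 ± 0.18) and PYGB in abdominal fat (-1.14 ± 0.23, a call that neither other scaling kept). Enzymes shared by both directions, such as TPI1 (107, 152 and 156 FPKM in liver and 96.5, 119.7 and 119 FPKM in abdominal fat), PGK1 and PGAM1, were not called as deposited, and all 3 were higher in liver under median ratio scaling.

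**Figure D3:**
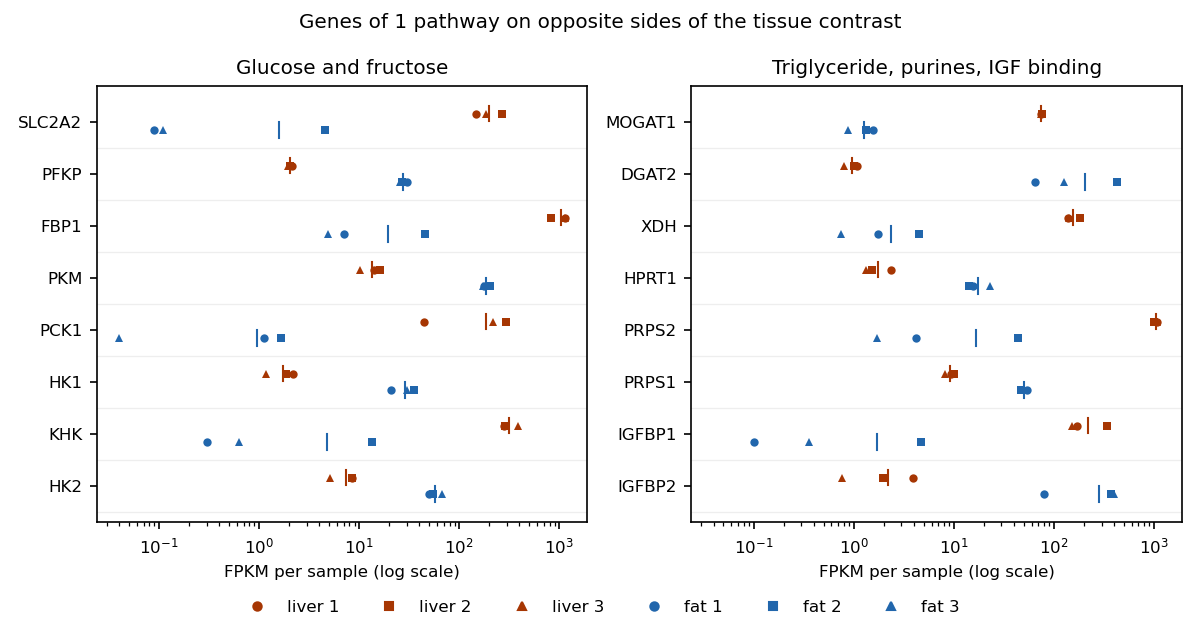
FPKM per sample on a log axis for 8 genes of glucose and fructose handling and 8 genes of triglyceride, purine and IGF pathways, placed as neighbours of opposite direction, with 1 symbol per sample and a bar at the mean of the 3 samples. In each neighbouring pair the upper gene is higher in liver and the lower gene in abdominal fat, with no overlap between the tissues, and PCK1 is lowest in liver 1.

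In the list of fatty acid oxidation and ketone body genes, 19 of 31 tested genes were higher in liver and 3 in abdominal fat. The shares of all tested genes were 10% and 40.0%. PPARA, the regulator of fatty acid oxidation, and EHHADH, a peroxisomal oxidation enzyme, were higher in liver by 3.29 ± 0.31 and 5.36 ± 0.37. The ketone body genes OXCT1 and BDH1 were on the other side. OXCT1, which starts the use of ketone bodies and is lacking in mammalian hepatocytes, measured 34.1, 35.7 and 33.2 FPKM in abdominal fat and 2.22, 1.1 and 1.09 FPKM in liver (-3.87 ± 0.19; limma, adjusted p = 6.02e-06). BDH1, which interconverts the ketone bodies, measured 44.9, 57.3 and 59.9 FPKM in abdominal fat and 3.84, 2.77 and 2.46 FPKM in liver.

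Genes of fatty acid synthesis leaned to the liver. Of 26 tested genes, 12 were higher in liver and 5 in abdominal fat, beside 10% and 40.0% of all tested genes. Quantile normalization and median ratio scaling gave 14 and 16 in liver and 5 and 3 in abdominal fat. ELOVL6, which lengthens palmitate, measured 332, 496 and 617 FPKM in liver and 6.37, 31.8 and 6.45 FPKM in abdominal fat. MLXIPL (the carbohydrate response factor ChREBP) measured 65.5, 69.3 and 76.7 FPKM in liver and 1.53, 2.66 and 0.7 FPKM in abdominal fat. SLC25A1, the mitochondrial citrate carrier, was higher in liver by 3.63 ± 0.24. ACLY (ATP citrate lyase) and ACACA (acetyl-CoA carboxylase alpha), named after their values were seen, differed by 3.19 ± 0.32 and 1.35 ± 0.44. In this list 9 genes were not called, and 3 of them are given here. FASN (fatty acid synthase) measured 33.1, 75.7 and 80.8 FPKM in liver and 45.3, 55.05 and 32.99 FPKM in abdominal fat, with a 95% interval of the difference from -0.42 to 1.28. SCD, which desaturates stearate, measured 147, 922 and 1214 FPKM in liver and 357, 557 and 188 FPKM in abdominal fat (interval from -1.19 to 2.62). THRSP, a lipogenic factor, measured 566, 1751 and 2651 FPKM in liver and 1929, 2241 and 1795 FPKM in abdominal fat (interval from -1.80 to 0.76). For all 3 liver 1 was the lowest liver and the tissues overlapped, and the intervals are wide. FASN was higher in liver under median ratio scaling and THRSP in abdominal fat under quantile normalization. ACACB, the carboxylase that restrains fatty acid oxidation, was on the fat side at 14.6, 18.1 and 23.1 FPKM, with 0.04, 0.13 and 0.16 FPKM in liver. ACSS2, which activates acetate, measured 119, 121 and 82.3 FPKM in abdominal fat and 14.1, 10.01 and 10.4 FPKM in liver.

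Of 18 tested triglyceride genes, 5 were higher in liver and 7 in abdominal fat, beside 10% and 40.0% of all tested genes. The count in abdominal fat was thus close to its share and the liver count above its share. Under quantile normalization and median ratio scaling, 7 and 7 were higher in liver and 4 and 3 in abdominal fat. DGAT2, which adds the last fatty acid, measured 65.4, 424 and 125 FPKM in abdominal fat and 1.08, 1.02 and 0.8 FPKM in liver, a difference of -6.28 ± 0.60 (limma, adjusted p = 7.70e-05). Its level varied widely among the abdominal fats and was even and low in the livers. MOGAT1, which adds a fatty acid to monoacylglycerol, lay on the other side, at 74.99, 75.8 and 75.1 FPKM in liver and 1.57, 1.34 and 0.88 FPKM in abdominal fat (5.09 ± 0.15). GPAM, the mitochondrial enzyme of the first step, and GK (glycerol kinase) were higher in liver by 2.04 ± 0.15 and 1.56 ± 0.25. AGPAT9, an acyltransferase of the same route, was higher in abdominal fat (51.7, 63.5 and 46.2 against 12.97, 12.2 and 14.2 FPKM).

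Of 19 tested lipid droplet and lipolysis genes, 12 were higher in abdominal fat and 2 in liver, beside 40.0% and 10% of all tested genes. Under quantile normalization and median ratio scaling, 11 and 10 were higher in abdominal fat and 3 and 4 in liver. PLIN1 (perilipin, the coat of the adipocyte droplet) measured 1840.2, 2136 and 1985 FPKM in abdominal fat and 4.49, 6.92 and 12.2 FPKM in liver (-7.90 ± 0.30; limma, adjusted p = 2.97e-06). PLIN4 measured 947, 1567 and 1531 FPKM in abdominal fat and 55.7, 35.1 and 34.7 FPKM in liver. ABHD5, the activator of adipose triglyceride lipase, measured 90.9, 81.8 and 75.04 FPKM in abdominal fat and 5.03, 5.27 and 5.3 FPKM in liver. PLIN2, the droplet coat of many cell types, was close, at 54.3, 39.6 and 53.1 FPKM in abdominal fat and 20.2, 40.05 and 29.8 FPKM in liver, and was not called. The 2 genes higher in liver were HSD17B11 (4.68 ± 0.29), a droplet protein, and AQP9 (2.75 ± 0.27), a glycerol channel.

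With all 6 samples as deposited, the fatty acid binding proteins gave the largest difference of all tested genes. FABP4 measured 9917, 10818 and 12512 FPKM in abdominal fat and 9.73, 3.87 and 2.96 FPKM in liver, a difference of -10.87 ± 0.36 (limma, adjusted p = 1.85e-06). Without abdominal fat 2 the FABP4 difference was -10.88, and that of AvBD9 towards liver, given further on, came close to it in size. RBP7, which binds retinol inside cells, measured 1794, 2147 and 2652 FPKM in abdominal fat and 1.19, 0.45 and 0.47 FPKM in liver. FABP3, the form of heart muscle, measured 2454, 2446 and 2821 FPKM in abdominal fat and 1.7, 0.77 and 0.8 FPKM in liver. FABP5 measured 337, 403 and 488 FPKM in abdominal fat and 3.35, 5.43 and 4.85 FPKM in liver. All 4 were even among the abdominal fats and low in every liver. Liver had other members, with LBFABP, the liver basic type of chicken, at 2689, 2945 and 5087 FPKM (0.93, 330.0 and 6.32 FPKM in abdominal fat), FABP7 at 115, 258 and 211 FPKM (11.1, 13.6 and 16.8 FPKM) and FABP1 at 25.1, 28.4 and 91.7 FPKM (0.57, 3.14 and 0.67 FPKM). RBP4A, the plasma retinol carrier gene, measured 2001, 1822 and 1788 FPKM in liver and 1, 73.2 and 2.47 FPKM in abdominal fat. The retinol carriers of the blood and of the cell thus lay in opposite directions. Of the list of 21 tested binding and uptake genes, 5 were higher in liver and 9 in abdominal fat. Beside 10% and 40.0% of all tested genes, the liver count was above its share and the count in abdominal fat close to it. The list median was 0.22, and -0.77 over all tested genes.

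Among 41 tested genes of adipocyte identity, 27 were higher in abdominal fat and 4 in liver, beside 40.0% and 10% of all tested genes. ADIPOQ (adiponectin, a hormone of adipocytes) measured 189.7, 129.6 and 106 FPKM in abdominal fat and 0.64, 0.72 and 0.38 FPKM in liver. PPARG, the master regulator of adipocyte formation, measured 31.8, 33.8 and 26.7 FPKM in abdominal fat and 1.42, 0.34 and 0.36 FPKM in liver (-4.27 ± 0.25). CAV1 and CAV2, the caveolins of adipocyte and endothelial surface pits, differed by -7.36 ± 0.20 and -7.43 ± 0.18. The 4 genes higher in liver were RARRES2 (chemerin, 2072, 2998 and 2052 against 249, 290.1 and 329.6 FPKM), PPARGC1A (3.37 ± 0.18), CEBPB (1.68 ± 0.21) and CEBPD (1.67 ± 0.27), of which the last 2 act early in adipocyte formation. With quantile normalization and median ratio scaling, 11 and 12 genes of the list were higher in liver and 23 and 24 in abdominal fat.

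Transcription factors separated the tissues at lower FPKM. Of 34 tested liver factors, 21 were higher in liver and 4 in abdominal fat, beside 10% and 40.0% of all tested genes. HNF4A, a central liver regulator, measured 9.83, 6.08 and 9.1 FPKM in liver and 0.02, 0.89 and 0.01 FPKM in abdominal fat. FOXA1, which opens chromatin at liver genes, measured 23.9, 28.7 and 29.1 FPKM in liver and 0.04, 0.93 and 0.02 FPKM in abdominal fat. NR1I3 (a receptor that senses foreign compounds) was at 41.5, 45.7 and 40.9 FPKM in liver, and was listed at 0 in abdominal fats 1 and 3 and at 1.26 FPKM in abdominal fat 2. CREB3L3, which is bound to the endoplasmic reticulum, differed by 6.66 ± 0.52. CEBPA, listed with the liver factors and also needed by adipocytes, was higher in abdominal fat (216, 328 and 151 against 59.4, 32.05 and 47.3 FPKM, -2.27 ± 0.33). Of the 40 tested factors of fat and mesenchyme, 35 were higher in abdominal fat and 0 in liver by limma (0 in liver also at an unadjusted p under 0.05). The shares of all tested genes were 40.0% and 10%. Under quantile normalization and median ratio scaling, 28 and 30 were higher in abdominal fat and 1 and 0 in liver. Some factors, such as MEOX2 and PRRX1, passed the limit only in abdominal fat, so these counts follow in part from the choice of tested genes. MEOX2, a homeobox factor, measured 73, 60.2 and 90.7 FPKM in abdominal fat and 0.27, 0.45 and 0.38 FPKM in liver. PRRX1, a mesenchymal factor, measured 47.8, 28.7 and 25.9 FPKM in abdominal fat and 0.03, 0.06 and 0 FPKM in liver. KLF4 and KLF2, which endothelial cells use, differed by -4.61 ± 0.15 and -4.79 ± 0.26.

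HOX genes, which keep the position of a cell along the body axis, were found in abdominal fat. All 18 tested HOX genes were higher in abdominal fat, beside 40.0% of all tested genes, while 17 of the 35 matched did not reach 1 FPKM in all samples of a tissue. The count was 17 of 18 when any single liver was left out, and 17 under quantile normalization. HOXB4 measured 87.4, 88.8 and 119 FPKM in abdominal fat and 3.57, 3.94 and 2.33 FPKM in liver. HOXB6 measured 19.8, 26.8 and 48.6 FPKM in abdominal fat and 0.05, 0.05 and 0 FPKM in liver. HOXB7 measured 7.16, 8.92 and 23.9 FPKM in abdominal fat and was listed at 0 in the 3 livers. HOXD8 was also listed at 0 in the livers and measured 5.72, 4.69 and 12.7 FPKM in abdominal fat. Abdominal fat 3 was the highest fat for 12 of the 18 genes. Genes that pass the limit only in abdominal fat had to be low in liver, so the count follows in part from the choice of tested genes.

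The connective tissue genes of abdominal fat were among its most abundant. Of 24 tested collagens, 21 were higher in abdominal fat and 1 (COL13A1) in liver, and of 55 other matrix genes 47 and 4. COL3A1, the chain of type III collagen, measured 3867, 3539.9 and 3338 FPKM in abdominal fat and 45.2, 82.8 and 33.3 FPKM in liver. COL1A1, a chain of type I collagen, measured 1414, 1519 and 1602 FPKM in abdominal fat and 27.2, 53.2 and 16.5 FPKM in liver. SPARC, a collagen-binding protein, measured 4099.9, 4172 and 3657 FPKM in abdominal fat and 105, 228 and 101 FPKM in liver. In all 3 genes liver 2 was the highest liver. MFAP5, a microfibril protein, measured 1154, 733 and 431 FPKM in abdominal fat and 0.63, 0.3 and 0.3 FPKM in liver, the widest gap of the matrix list (-9.00 ± 0.34). VTN (vitronectin, a plasma and matrix protein made by hepatocytes) was the matrix gene with the largest difference towards liver, at 5735, 7342 and 5968 FPKM in liver and 8.88, 186 and 11.4 FPKM in abdominal fat. Among cytoskeletal and membrane genes, VIM (vimentin) measured 1917, 3009 and 2418 FPKM in abdominal fat and 9.44, 10.5 and 6.18 FPKM in liver, and ANXA1 and ANXA2 (annexins) differed by -8.83 ± 0.22 and -7.23 ± 0.14. SSTR2, a somatostatin receptor, measured 294, 288 and 159 FPKM in abdominal fat and 0.17, 0.05 and 0.06 FPKM in liver.

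Markers of stromal and vascular cells were higher in abdominal fat. All 17 tested stromal and progenitor markers were called as deposited, and 14 and 15 under quantile normalization and median ratio scaling. They summed to between 7214 and 8583 FPKM in the abdominal fats and between 202 and 359 FPKM in the livers. THY1 and PI16, found on progenitors of fat in mammals, differed by -6.55 ± 0.25 and -6.28 ± 0.41. Of 23 tested endothelial markers 19 were higher in abdominal fat (16 and 15 under the other scalings), with a summed FPKM of 1174 to 1737 against 216 to 256. PECAM1, which joins endothelial cells, measured 234, 301 and 399 FPKM in abdominal fat and 11.7, 2.36 and 5.08 FPKM in liver. The 2 endothelial genes higher in liver were STAB2 (2.27 ± 0.16), a scavenger receptor of liver sinusoids, and PROX1 (1.98 ± 0.14), which hepatocytes and lymphatic cells share. Of 15 tested smooth muscle and pericyte markers 14 were higher in abdominal fat, and for 14 of the 15 abdominal fat 3 was the highest fat. TAGLN, a smooth muscle protein, measured 122, 86.6 and 246 FPKM in abdominal fat and 11.6, 14.2 and 7.34 FPKM in liver. Of 13 tested mesothelial and epithelial markers 6 were higher in each tissue, beside 10% in liver and 40.0% in abdominal fat of all tested genes. The liver count was above its share and the count in abdominal fat close to it. Under quantile normalization and median ratio scaling, 6 and 6 were higher in liver and 4 and 5 in abdominal fat. CDH1, the adhesion protein of epithelial cells, measured 115, 174 and 121 FPKM in liver and 0.26, 2.17 and 0.12 FPKM in abdominal fat. EPCAM and KRT8, likewise epithelial, were higher in liver by 5.58 ± 0.36 and 4.43 ± 0.32. WT1, found in mesothelium, measured 9.84, 7.5 and 7.68 FPKM in abdominal fat and 0.74, 0.96 and 0.44 FPKM in liver. LRRN4, found there too, was higher in abdominal fat, with a difference of -2.88 ± 0.17. The mesothelial marker MSLN was under 1 FPKM in all 6 samples and UPK3B was listed at 0.

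All birds carry a growth hormone receptor mutation. Genes of the growth hormone and IGF axis were called in both directions, in counts close to the shares of all tested genes. IGF1, which the liver normally makes in response to growth hormone, was listed at 0 in the 3 livers and at 1.82, 1.3 and 1.01 FPKM in abdominal fat. No fold is given for it, and the same tissue contrast in birds without the mutation was not measured here. IGF2 was at 26.01, 21.1 and 17.7 FPKM in liver and 37.8, 31.1 and 44.6 FPKM in abdominal fat and was not called. Their binding proteins were divided. IGFBP1 measured 171, 339 and 152 FPKM in liver and 0.1, 4.73 and 0.36 FPKM in abdominal fat (6.66 ± 0.63). IGFBP2 measured 79.2, 369 and 404 FPKM in abdominal fat, with abdominal fat 1 the lowest, and 3.9, 1.96 and 0.76 FPKM in liver (-6.28 ± 0.66). IGFBP4 measured 249, 119 and 128 FPKM in abdominal fat and 7.08, 7.06 and 5.36 FPKM in liver. Of 21 tested genes of this axis, 3 were higher in liver and 10 in abdominal fat, beside 10% and 40.0% of all tested genes. The other scalings gave 7 and 7 in liver and 5 and 6 in abdominal fat. Without abdominal fat 2 the count in liver was 6, and without liver 1 or liver 3 it was 5.

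Thyroid hormone and iron genes leaned to the liver. Of 9 tested thyroid genes 6 were higher in liver and 0 in abdominal fat by limma (0 also at an unadjusted p under 0.05), with 1 in abdominal fat under quantile normalization. DIO1, which activates thyroid hormone, measured 30.6, 23.8 and 31.7 FPKM in liver and 0.29, 1.32 and 0.25 FPKM in abdominal fat, and DIO3, which inactivates it, was uneven among livers at 14.7, 52.3 and 4.91 FPKM (3.08 ± 0.70). Of 22 iron and haem genes 8 were higher in liver and 2 in abdominal fat, beside 10% and 40.0% of all tested genes. HPX (hemopexin, which binds haem in plasma) and TMPRSS6, which restrains hepcidin in mammals, differed by 7.70 ± 1.06 and 6.67 ± 0.67. FTH1 (ferritin heavy chain) was among the 10 most expressed genes of both tissues, at 7746, 6488 and 5509 FPKM in liver and 6574, 7769 and 8784 FPKM in abdominal fat, and was not called as deposited. SLC40A1 (ferroportin, the iron exporter) was higher in abdominal fat (-1.17 ± 0.16), which held under neither other scaling.

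The liver also carried antimicrobial genes at high FPKM. Of 14 tested defensins and liver antimicrobial genes 8 were higher in liver and 1 in abdominal fat, beside 10% and 40.0% of all tested genes. AvBD9, an avian beta-defensin, measured 6506, 10666 and 13064 FPKM in liver, among its 10 most expressed genes, and 1.86, 794 and 10.6 FPKM in abdominal fat (8.35 ± 1.85). AvBD10 measured 521, 1294 and 1118 FPKM in liver and 0.63, 67.1 and 1.33 FPKM in abdominal fat. LEAP2, an antimicrobial peptide of liver, was at 58.4, 179 and 204 FPKM in liver, and was listed at 0 in abdominal fats 1 and 3 and at 14.1 FPKM in abdominal fat 2. For all 3 liver 1 was the lowest liver and abdominal fat 2 the highest fat. AvBD1 and AvBD2 are stored by heterophils, the avian counterpart of neutrophils. AvBD1 measured 3.39, 1.32 and 1.63 FPKM in liver and 0, 2.11 and 12.5 FPKM in abdominal fat, and AvBD2 was close to it, with the highest value of both in abdominal fat 3.

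Cytosolic ribosomal protein genes were close between the tissues. Of 66 tested genes 0 were higher in liver and 2 in abdominal fat by limma (0 and 37 at an unadjusted p under 0.05), of which 0 remained called under median ratio scaling, and 8 were higher in abdominal fat under quantile normalization. Their median difference was -0.51 as deposited and -0.59 after quantile normalization and turned to 0.24 after median ratio scaling. Leaving out abdominal fat 1 or 2 gave 4 genes higher in abdominal fat and leaving out liver 3 gave 6, whereas none was called without abdominal fat 3 or liver 2.

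Liver transcripts in abdominal fat 2 were measured with the 20 hepatocyte markers. As a percent of the mean of the livers, the median marker was at 0.0638% in abdominal fat 1, 4.55% in abdominal fat 2 and 0.132% in abdominal fat 3. The range in abdominal fat 2 was 2.93% to 33.2%, and 0 of the markers were listed at 0 in any abdominal fat. The 33 plasma proteins with a level in liver gave medians of 0.0723%, 4.58% and 0.151%. CPS1 (at most 1 FPKM in every sample), APOA1 and FABP1 stood higher than the other markers in abdominal fats 1 and 3. Over all 1249 genes higher in liver, abdominal fat 2 was the highest fat for 825. The adipocyte markers in livers 1, 2 and 3 had medians of 3.08%, 0.83% and 0.928% of the mean of the abdominal fats. The source of the liver transcripts in abdominal fat 2 was not tested.

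**Figure D4:**
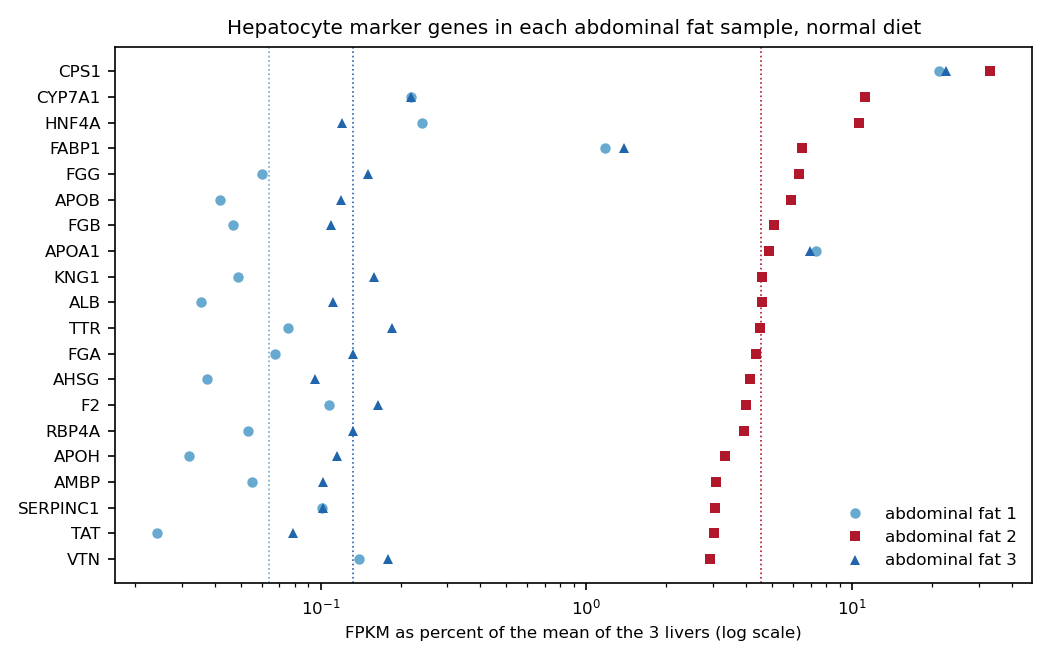
FPKM of 20 hepatocyte markers in each abdominal fat as a percent of the mean of the 3 livers, on a log axis, with a dotted line at the median of each sample. Abdominal fat 2 lies at 2.93% or more for every marker, and abdominal fats 1 and 3 lie below it for all markers other than APOA1.

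Without abdominal fat 2, 51.0% of the same genes were called, 1272 higher in liver (10.2%) and 5073 higher in abdominal fat (40.7%). Of the liver calls 27 were lost and 50 were gained, and of the fat calls 111 were lost and 201 gained. The sizes moved more than the calls. The difference was 8.50 for ALB with all samples and 10.55 without abdominal fat 2, 8.35 and 10.72 for AvBD9, 7.68 and 9.83 for LBFABP, and 7.77 and 9.43 for TTR. For CYP4B1 it was 7.90 and 8.20, since its level in abdominal fat 2 was only 2.04 FPKM. Among genes given above only as a difference, it was 8.17 and 10.15 for APOC3, 6.31 and 7.47 for MBL2, and 6.66 and 7.76 for KHK. Genes higher in liver by at least 5 on the log2 scale numbered 183 with all samples and, of the same 1249 genes, 229 without abdominal fat 2. The liver counts of the plasma protein, hepatocyte, bile acid and amino acid lists were the same with and without it (31, 19, 24 and 45). The liver count rose from 3 to 6 for the IGF axis. It also rose for coagulation (20 to 21), cytochrome P450 (29 to 30), glucose (20 to 21), iron (8 to 9) and adipocyte identity (4 to 5).

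Within a tissue, single samples stood out for some groups of genes. In liver 1 all 17 tested macrophage markers were higher than in the other livers, and their summed FPKM over the list was 1517 in liver 1, 934 in liver 2 and 690 in liver 3, against 3461 to 3880 in abdominal fat. MARCO, a scavenger receptor of macrophages, measured 66.3, 2.66 and 4.21 FPKM in liver and 16.3, 12.1 and 16.3 FPKM in abdominal fat. TIMD4, a receptor for dying cells on resident macrophages, measured 45.3, 2.56 and 4.22 FPKM in liver and 2.82, 6.41 and 1.73 FPKM in abdominal fat. C1QB, a complement gene of macrophages, measured 62.5, 7.79 and 6.54 FPKM in liver and 67.1, 57.7 and 55.05 FPKM in abdominal fat, and C1QC followed it at 65.9, 7.35 and 8.68 FPKM in the livers. None of these 4 was called, and liver 1 lay inside or above the range of abdominal fat in each of them. Of the 17 markers 8 were higher in abdominal fat and 1 in liver, close to the 40.0% and 10% of all tested genes. Under quantile normalization and median ratio scaling, 5 and 5 were higher in abdominal fat and 2 and 2 in liver. Leaving out 1 abdominal fat gave 6 to 7 in abdominal fat. Without liver 1, 13 were higher in abdominal fat, without liver 2 or liver 3 5 were, and without abdominal fat 1, 2 were higher in liver. Liver 1 was also the lowest liver in PCK1, SCD and THRSP.

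**Figure D5:**
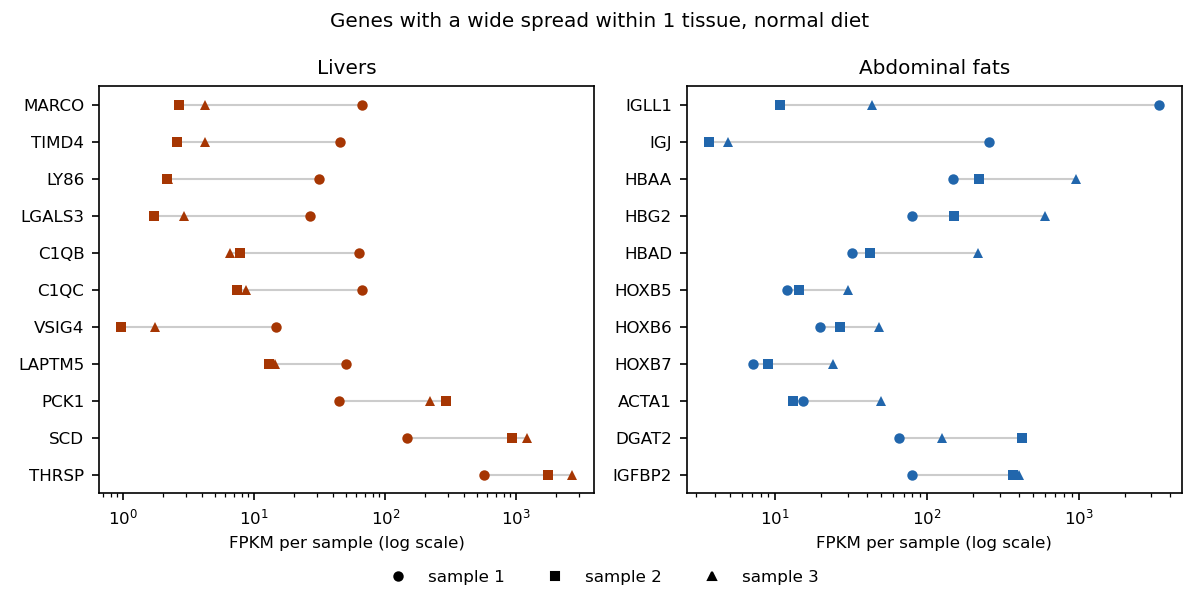
FPKM per sample on a log axis for 11 genes in the 3 livers and 11 genes in the 3 abdominal fats that vary within a tissue. Liver 1 is the highest liver for the 8 genes at the top of the left panel and the lowest for PCK1, SCD and THRSP, abdominal fat 1 is the highest fat for IGLL1 and IGJ, and abdominal fat 3 for the haemoglobin and HOX genes and ACTA1.

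Among the abdominal fats, IGLL1, an immunoglobulin light chain gene of B and plasma cells, measured 3389, 10.7 and 43.6 FPKM, and 557, 346 and 57.2 FPKM in liver (95% interval of the difference from -3.84 to 5.61). IGJ, the joining chain of antibodies, was likewise at 254, 3.67 and 4.89 FPKM, so that both were highest in abdominal fat 1. HBAA, a haemoglobin gene of red cells, which keep a nucleus in birds, measured 148, 221 and 961 FPKM in abdominal fat and 189, 309 and 522 FPKM in liver. HBAD, another haemoglobin gene, measured 32.02, 42.4 and 216 FPKM in abdominal fat and 45.7, 69.3 and 113 FPKM in liver. Both were highest in abdominal fat 3. The erythroid and thrombocyte list summed to between 395 and 1869 FPKM in the abdominal fats and between 369 and 953 FPKM in the livers. The part of blood and of immune cells in the results on other genes of these samples was not tested.

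In the HFD birds, which are other animals, 43.8% of the same 12450 genes were called in this contrast, 1313 higher in liver (10.5%) and 4145 in abdominal fat (33.3%). Of the ND calls, 1118 of 1249 liver calls and 3863 of 4983 fat calls were called in the same direction on HFD and 0 in the opposite one. These are 89.5% and 77.5% of the ND calls and 85.1% and 93.2% of the HFD calls.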

How the data were processed

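Total RNA from liver and abdominal fat was extracted with Trizol and sequenced on a BGISEQ-500 machine. The authors deposited 1 table per sample with an FPKM value per gene, written to 2 decimals. HISAT2 2.0.4, Bowtie2 2.2.5 and RSEM 1.2.12 are listed in the submitters' processing notes, with no role given, and the genome build is not given in the sources used here. The tables hold no counts, and the low FPKM values showed no steps from which whole reads could be recovered, so the depth per sample is unknown and no counting interval is given. FPKM is relative to the sample, so a few very abundant genes lower the values of the others.

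Samples were grouped by their titles. FPKM was transformed as log2(FPKM + 1), and genes with at least 1 FPKM in all 3 samples of either tissue were tested in 1 fit of the 6 ND samples, with no block (limma 3.58.1 in R 4.3.3, moderated variances with a trend, two-sided, Benjamini-Hochberg adjustment over 12450 genes). Calls needed a log2 difference of 1 or more in size with an adjusted p of 0.05 or less. Replicates are separate birds of 1 group. The 95% intervals come from the same fit. The methods describe both tissues from the same chickens, but not that equal numbers are the same bird.

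The members and the 40 gene lists were chosen with earlier results of these data known, so their counts are descriptions and no set was tested. List names were matched to the symbols of the files or, by gene ID, to RefSeq symbols (GRCg7b, 15244 of 18332 IDs present), and 1007 genes matched, of which 832 were tested. The mitochondrially encoded subunits had 0 matches. Genes were named by a rule: the 10 most expressed genes of each tissue, the called genes of each list with the largest differences (up to 5 per direction) and up to 3 of its abundant genes that were not called, the 15 called genes with the largest differences per direction, a set of well-known tissue genes, and genes with the widest spread within a tissue. GYS1, GYS2, PYGL, PYGB, ACLY, ACACA, CPS1, LEPR, MSLN and UPK3B were named outside this rule, after their values were seen. A planned search of promoter motifs was not run. Some genes are not reported here.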

Additional observations from a re-analysis of the deposited data

How the results depend on the processing

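Of 14 alternatives, the scalings changed the counts. Higher in liver were 1249 genes as deposited, 2074 after quantile normalization and 2036 after median ratio scaling, and higher in abdominal fat were 4983, 2405 and 2709. A pseudocount of 0.1 gave 1358 and 5740, no filter on low values 1270 and 5044, a mean of at least 1 FPKM 1238 and 4915, and a fit of all 12 samples 1255 and 4994, while a fit without the variance trend called the same 1249 and 4983 genes. Leaving out 1 sample at a time gave 1240 to 1286 and 4730 to 5256. At an unadjusted p under 0.05, 9771 genes differed. Of 355 named results (352 with a mean of at least 1 FPKM), 0 changed direction while called in either setting, and 38 that were not called changed sign in at least 1, 29 of them under median ratio scaling and 16 under quantile normalization. In all, 21 and 20 lost their call and 17 and 28 gained one under quantile normalization and median ratio scaling. The promoter motif description was not run. Deviations of same-numbered samples correlated at 0.237, 0.065 and 0.213. The planned rule took the numbers as pairs only if all 3 correlations were over 0.1, and it was not met. Each abdominal fat correlated best with the liver of its own number, a hint from the data and not the design. With the replicate number as a block, 1256 and 5005 genes were called. Without counts, the precision of low FPKM values is unknown, and 3 samples per tissue limit the tests.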

Other observations

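Of 12 tested T and NK cell markers 3 were higher in liver and 0 in abdominal fat by limma (0 also at an unadjusted p under 0.05). The shares of all tested genes were 10% and 40.0%. The genes of the T cell receptor complex CD3D (18.1, 19.6 and 12.5 FPKM in liver and 24.04, 13.6 and 15.7 FPKM in abdominal fat) and CD3E (15.5, 13.8 and 9.26 and 16.2, 8.76 and 9.61 FPKM) overlapped between the tissues. IL7R, the receptor for a lymphocyte survival factor, was higher in liver, at 17, 23.7 and 13.7 FPKM, with 2.1, 1.83 and 1.14 FPKM in abdominal fat (2.82 ± 0.24). Of 9 tested B and plasma cell markers 2 were higher in abdominal fat, EBF1 (19.5, 16.02 and 11.9 against 0.21, 0.08 and 0.27 FPKM), which adipocyte precursors also use, and TXNDC5, a folding enzyme of secretory cells. This count was below the 40.0% of all tested genes. Without abdominal fat 3 it was 4, and without abdominal fat 1, 2 were higher in liver. The median of that list was -0.63 as deposited, 0.22 after quantile normalization and 0.02 after median ratio scaling.

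Of 11 tested heterophil markers 4 were higher in liver and 1 in abdominal fat, and 7 in liver without abdominal fat 3. Beside 10% and 40.0% of all tested genes, only the liver count was above its share. The 4 include AvBD9 and AvBD10, which are also in the antimicrobial list. Of 12 tested hepatic stellate markers 4 were higher in liver and 7 in abdominal fat, beside 10% and 40.0% of all tested genes. Under quantile normalization and median ratio scaling, 4 and 4 were higher in liver and 4 and 5 in abdominal fat. LRAT, which esterifies retinol for storage, was higher in liver (1.19 ± 0.18) at 1.92, 2.86 and 1.48 FPKM, with 0.45, 0.31 and 0.25 FPKM in abdominal fat, and CYGB (cytoglobin) was higher in abdominal fat (57.4, 54.7 and 76.5 against 2.47, 3.12 and 0.47 FPKM).

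Of 23 matched skeletal muscle markers 2 reached the limit for testing, and both were higher in abdominal fat, beside 40.0% of all tested genes. ACTA1, the actin of skeletal muscle, measured 15.2, 13.1 and 49.7 FPKM in abdominal fat and 0.91, 1.74 and 1.23 FPKM in liver. Of 6 tested gut and pancreas markers 2 were higher in liver and 3 in abdominal fat, beside 10% and 40.0% of all tested genes. The count in abdominal fat was close to its share, and it was 2 under quantile normalization. GCG (proglucagon) measured 10.8, 6.76 and 4.85 FPKM in abdominal fat and 0.14, 0.1 and 0 FPKM in liver, and LGR5 measured 8.98, 24.2 and 9.49 and 0.14, 0.04 and 0.02 FPKM. The source of these transcripts in abdominal fat was not tested.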
